A study of Homo sapiens with 6 samples.

Results

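Long intergenic RNAs whose gene symbol is LINC followed by digits were examined in LNCaP parental and PACT KO cells. The deposited counts list 29806 genes by NCBI Gene number, and 1385 of these carry such a symbol. Members were the LINC genes with at least 60 reads summed over the 6 libraries, which left 167 genes, all annotated as long non-coding RNA. Of the remainder, 822 had no read in any library and 396 had 1 to 59 reads, so that the 167 genes held 97.8% of all LINC reads. The choice used only the sum over both groups. LINC01012 (57 reads) and LINC01752 (59 reads) fell just short, and LINC01093 (64 reads) and LINC01126 (65 reads) were just included.

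LNCaP is an androgen-responsive human prostate cancer cell line, and PACT, the product of PRKRA, is a double-stranded RNA-binding protein known as an activator of the kinase PKR and as a partner of Dicer. The study compared 3 dishes of unedited LNCaP parental cells with 3 dishes of a CRISPR-Cas9 PACT knockout, in order to find which genes change when PACT is depleted. Both groups grew in RPMI-1640 with 10% fetal bovine serum and no further treatment, on dishes of 10 cm, and RNA was taken at 48 h after plating at about 80% confluency. The knockout dishes came from 1 clone and the parental dishes from a population of cells, so p-values measure the spread between dishes, and an effect of PACT cannot be told apart from one of cloning.

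Long intergenic non-coding RNAs are transcribed by RNA polymerase II from their own units between protein-coding genes, and most are spliced and polyadenylated like messenger RNAs but encode no known protein. As a class they tend to be scarcer than mRNAs and more restricted to certain cell types. Some act on chromatin or on genes nearby, some bind proteins or small RNAs in the cytoplasm, and for most no function is established. The LINC symbols are serial numbers, which say nothing about function or family.

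The library totals were 19930060 to 24940838 reads on genes. PRKRA itself was lower but still present in PACT KO, at 291, 331 and 243 reads, against 882, 809 and 866 in parental cells. Luminal prostate genes such as FOXA1, HOXB13 and FOLH1 had 10111 to 38907 reads in every library. KLK3 and KLK2, secreted kallikreins of the same marker list, were lower in PACT KO, at 1325 to 1569 against 226 to 293 reads (log2 fold change -2.50, FDR = 2.55e-30 in edgeR) and 548 to 665 against 333 to 356 reads (log2 fold change -0.84, FDR = 3.66e-12 in edgeR). KRT5 of basal cells, COL1A2 of fibroblasts, PECAM1 and CDH5 of endothelium and CD3E of T cells were at 0 in all 6. COL1A1 and VWF were the other-cell markers with substantial reads, at 623 to 732 against 878 to 1065 for COL1A1 and 537 to 613 against 335 to 437 for VWF. Reads on mitochondrial genes made up 1.97% to 2.01% of the parental libraries and 2.496% to 2.857% of the PACT KO libraries. This share moves with the groups in every comparison below, and its part in the results was not tested.

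The sequences around the start sites of the largest falls and rises are given to show what surrounds the starts of the genes that moved most. They run 5′ to 3′ on the gene's strand from 250 bases before the RefSeq start to 50 bases after it, on GRCh38.p14. They were chosen as the 2 largest falls and the 2 largest rises that had an entry in the RefSeq promoter table. LINC00265 lies on the plus strand (chr7:39733318-39733617), LINC00623 on the plus strand (chr1:120911988-120912287), LINC01132 on the plus strand (chr1:234723792-234724091) and LINC01019 on the minus strand (chr5:3536045-3536344). Capitals mark an AGAACA, the half-site letters of an androgen response element, in LINC00623, and a TATAAA, the TATA box letters, in LINC01132.
LINC00265: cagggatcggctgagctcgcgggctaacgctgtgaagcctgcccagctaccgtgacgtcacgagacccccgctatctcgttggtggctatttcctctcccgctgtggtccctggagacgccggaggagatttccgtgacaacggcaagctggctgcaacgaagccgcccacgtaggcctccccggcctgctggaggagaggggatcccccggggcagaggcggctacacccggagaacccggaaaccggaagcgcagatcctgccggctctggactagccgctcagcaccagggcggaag
LINC00623: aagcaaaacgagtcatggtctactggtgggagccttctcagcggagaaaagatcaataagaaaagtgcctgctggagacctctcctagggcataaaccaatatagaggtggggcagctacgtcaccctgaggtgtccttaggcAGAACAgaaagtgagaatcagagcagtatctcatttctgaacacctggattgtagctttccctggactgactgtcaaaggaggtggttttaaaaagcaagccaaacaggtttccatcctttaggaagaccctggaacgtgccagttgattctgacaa
LINC01132: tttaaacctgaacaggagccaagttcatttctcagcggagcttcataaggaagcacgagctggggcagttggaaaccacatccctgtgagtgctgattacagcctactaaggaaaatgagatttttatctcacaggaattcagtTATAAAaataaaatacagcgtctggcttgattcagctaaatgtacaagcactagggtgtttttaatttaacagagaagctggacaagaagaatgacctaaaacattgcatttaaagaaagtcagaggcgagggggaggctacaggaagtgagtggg
LINC01019: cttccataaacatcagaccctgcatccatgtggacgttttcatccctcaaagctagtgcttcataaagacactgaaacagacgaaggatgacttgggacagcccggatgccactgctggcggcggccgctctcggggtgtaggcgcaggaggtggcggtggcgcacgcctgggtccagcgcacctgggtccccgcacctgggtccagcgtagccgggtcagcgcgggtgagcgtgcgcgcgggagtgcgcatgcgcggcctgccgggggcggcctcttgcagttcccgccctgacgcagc
The windows of LINC00265 and LINC01019, the largest fall and the largest rise, held 27 and 28 CG dinucleotides and neither of these motifs on either strand. The windows of LINC00623 and LINC01132 held 4 CG each, with the motif at 107 bases before the start in LINC00623 and at 106 bases before it in LINC01132. Across all 35116 windows of the table the median was 14 CG, 11.5% held TATAAA and 14.8% held AGAACA, both strands searched. Among 143 windows of the 127 LINC RNAs with an entry the median was 15 CG, 14.0% held TATAAA and 20.3% held AGAACA. Half-sites occurred at 1 of 4 genes that fell and at 2 of 6 that rose. Those that fell include LINC01123 and LINC01106, whose windows are the same over 289 aligned bases. A full androgen response element (both half-sites facing each other 3 bases apart) was in none of the LINC windows and in 0.00285% of all. These matches are letters in a window, not measured binding.

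The LINC RNAs together took up 0.126%, 0.127% and 0.129% of the reads on genes in parental libraries, against 0.137%, 0.135% and 0.138% in PACT KO libraries. Every PACT KO share lay above every parental share. In reads per 1000000 of the TMM-scaled library total (CPM), their sum was 1283, 1286 and 1298 in the parental and 1353, 1344 and 1357 in the PACT KO libraries, a difference of the means of 62.4 CPM. The 10 LINC RNAs with the most reads held 48.0% of the member reads but 9.53 CPM of that difference, and the other 157 held 52.9 CPM of it. Of the 15 genes called below, the 9 that rose added 15.1 CPM and the 6 that fell changed it by -10.2 CPM, a net of 4.90 CPM. The 8 that passed the FDR with a change under 1.5-fold added 27.6 CPM, and the 144 that did not pass it or were not tested added 29.9 CPM.

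**Figure D1:**
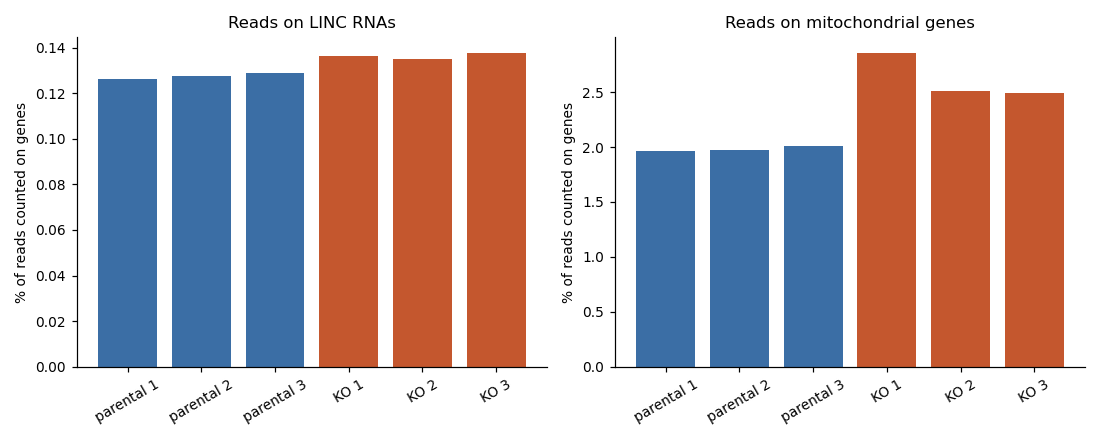
Bars give the percentage of reads counted on genes that fell on the 167 LINC RNAs (left) and on mitochondrial genes (right) in each library, parental in blue and PACT KO in orange. The LINC share was 0.126% to 0.129% in the parental libraries and 0.135% to 0.138% in the PACT KO libraries.

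LINC00674 was the LINC RNA with the most reads, with 2642, 2569 and 2923 in the parental and 2908, 2808 and 2332 in the PACT KO replicates. It stood at 118 ± 1.25 and 116 ± 1.33 CPM (SD, n = 3 each), with a log2 fold change of -0.02 (standard error 0.03). LINC01278 followed with 2424, 2079 and 2411 reads against 2603, 2699 and 2131, and LINC00205 with 2020, 1821 and 2158 against 2206, 2070 and 1758. The means of these 3 RNAs differed by at most 1.07-fold between the groups, and none passed an FDR of 0.01 in edgeR. Of the 10 with the most reads, LINC01000 and LINC00648 did pass it, both higher. LINC00648 had 793, 716 and 777 reads against 970, 1004 and 841, and moved from 33.1 ± 1.78 to 40.7 ± 1.27 CPM (SD, n = 3 each), without overlap of the groups (log2 fold change 0.30, standard error 0.05, FDR = 4.37e-06 in edgeR). LINC01000 moved from 43.8 ± 2.25 to 49.9 ± 2.18 CPM (log2 fold change 0.19, standard error 0.04, FDR = 5.64e-04 in edgeR). The other 5, LINC00665, LINC00667, LINC00963, LINC00938 and LINC00839, had log2 fold changes of -0.13 to 0.05.

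Per kilobase of exon, which allows levels to be set against each other between genes, the 150 LINC RNAs with a GENCODE 29 length had a median of 0.889 CPM per kb in parental and 0.904 CPM per kb in PACT KO cells, and 68 exceeded 1 CPM per kb in parental cells. LINC00674 led with 160 CPM per kb, but over only 734 bases of annotated exon, which need not be the model on which its reads were counted. After it in parental cells came LINC00839 at 16.7 ± 0.905 (SD, n = 3), LINC03011 at 16.4 ± 1.19 and LINC01278 at 15.7 ± 0.915 CPM per kb, whose order did not exceed their spread. The order of the genes was much alike in both groups (Spearman 0.953 across 150 genes, which share libraries and lengths).

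Differential expression was tested with edgeR's quasi-likelihood F-test, 2-sided, on 14462 genes, with Benjamini-Hochberg adjustment over all of them (FDR). Calls needed an FDR below 0.01 together with a change of 1.5-fold or more in either direction. Of the 167 LINC RNAs, 166 passed edgeR's filter on reads per library and were tested. The one that was not, LINC01270, had 28, 9 and 22 reads in parental and 6, 4 and 7 in PACT KO replicates, and shares sequence with LINC01271, which it overlaps. Among the 166, 6 (3.61%) were called lower, against 2.65% of all genes tested, and 9 (5.42%) were called higher, against 3.07%. At an FDR under 0.01 with any fold, 7 (4.22%) were lower, against 18.8% of all genes tested, and 16 (9.64%) were higher, against 15.3%, which left 143 that did not pass. In 57 LINC RNAs (34.3%) the groups did not overlap, 40 of them higher and 17 lower, against 52.2% of all genes tested. With an FDR under 0.01 and a change of 2-fold or more there were 7 LINC RNAs (4.22%) and 285 of 12528 protein-coding genes (2.27%). These shares were not matched for the number of reads.

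The log2 fold changes of the LINC RNAs had a median of 0.15, with quartiles of -0.05 and 0.31, beside 0.00 over all genes tested and -0.01 over protein-coding genes. They were positive in 112 and negative in 54. The median was 0.14 in the 82 tested that overlap the body of another gene and 0.16 in the 84 that do not. Most of these differences were small, as 9 in 10 lay at or below a log2 fold change of 0.54 and 1 in 10 at or below -0.33.

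**Figure D2:**
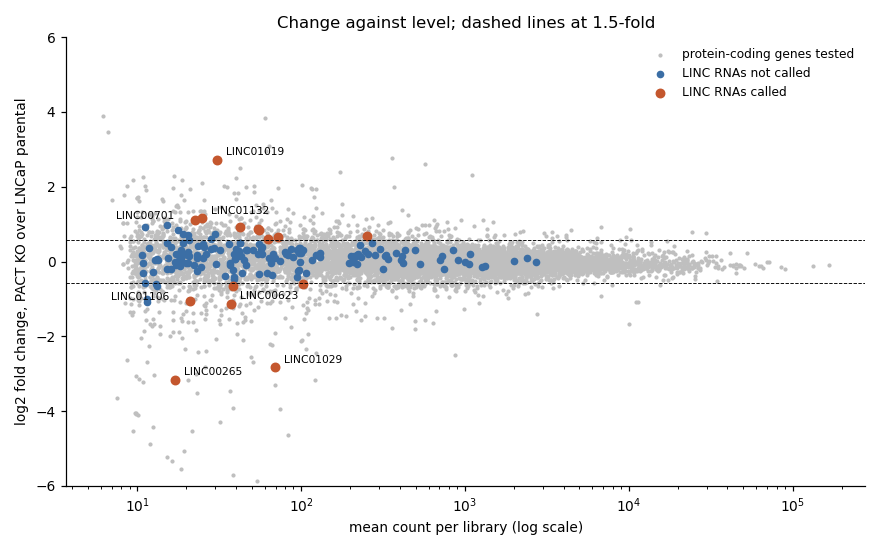
Each point is a gene tested, with the mean count per library on a log axis against the log2 fold change of PACT KO over LNCaP parental, protein-coding genes in grey, LINC RNAs not called in blue and called in orange, and 8 protein-coding genes beyond the axis at 6 are not drawn. The called LINC RNAs all lie at low to moderate counts, and LINC00265, LINC01029 and LINC01019 stand furthest from 0.

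The LINC RNAs had far fewer reads than protein-coding genes, with a median over genes of 46.3 reads per library (10.7 to 2697) against 818, and both the spread and the reach of the test depend on this number. They were therefore set against protein-coding genes of like level, in bins of mean count per library. At 10 to 20 reads, 1 of 34 LINC RNAs was called (2.94%) against 11.3% of 530 protein-coding genes. Between 20 and 50 reads the numbers were 7 of 51 (13.7%) against 21.5% of 740, and between 50 and 100 reads 5 of 34 (14.7%) against 19.4% of 567. At these levels the LINC RNAs were called at a lower rate than protein-coding genes, although over all levels their rate was above that of all genes tested. Between 100 and 200 reads 1 of 8 was called (12.5%) against 14.9% of 772, and between 200 and 500 reads 1 of 25 (4.00%) against 6.03% of 1941. From 500 reads up, no LINC RNA of 14 reached 1.5-fold with an FDR under 0.01, 3 of them (21.4%) passed the FDR alone, and the protein-coding shares were 1.85% and 44.8% of 7904. No test of these differences in share was made.

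Replicates of LINC RNAs scattered about as much as those of protein-coding genes with like counts. The replicate SD of log2 CPM about the group means, divided by the protein-coding median of the same bin, had a median of 1.07 (quartiles 0.77 and 1.37), with 94 LINC RNAs above 1. In absolute terms the median SD was 0.31 at 10 to 20 reads, where protein-coding genes had 0.36, and 0.20 against 0.18 at 50 to 100 reads. From 500 reads up it was 0.06 against 0.04, in an open bin where the protein-coding genes had more reads and a counting SD of 0.0373, against 0.0449 for LINC RNAs. Counting alone would give about 0.33 for LINC RNAs in the lowest bin and 0.04 in the highest, and over all members the median ratio of the replicate SD to the counting SD was 1.08. Over the protein-coding genes tested this ratio was 1.19, without matching for the number of reads. The size of the change, the absolute log2 fold change over the protein-coding median of the bin, had a median of 0.89 (quartiles 0.42 and 1.37), and 10 LINC RNAs exceeded 3 times the protein-coding median. By bin, the median log2 fold change was 0.16 against 0.06 for protein-coding genes at 20 to 50 reads, 0.19 against 0.06 at 50 to 100, and 0.17 against 0.02 at 200 to 500. It was 0.04 against 0.12 at 10 to 20 reads, 0.07 against 0.07 at 100 to 200, and -0.00 against -0.02 from 500 up.

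**Figure D3:**
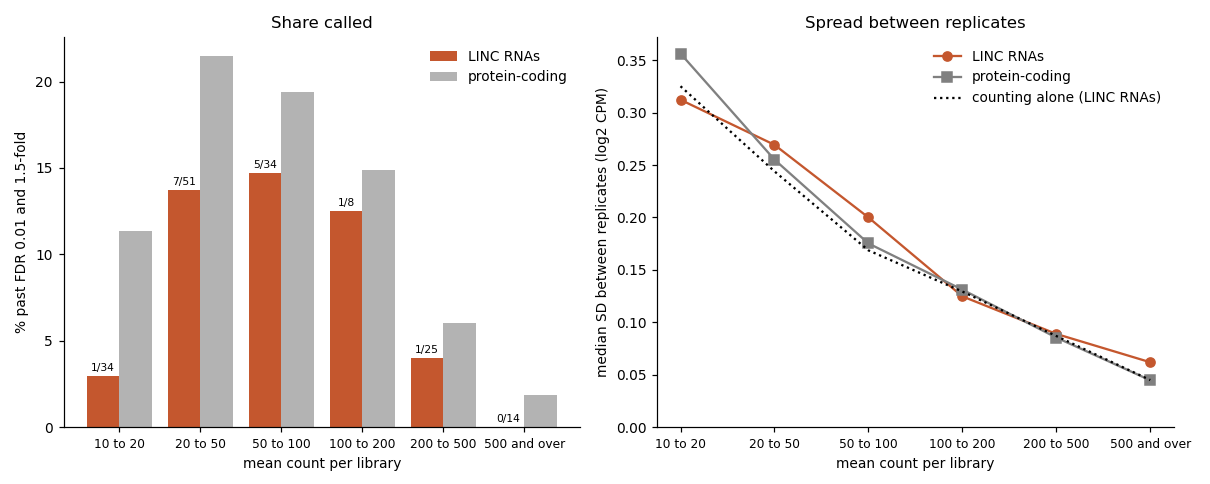
Left, bars give the percentage of genes past an FDR of 0.01 and 1.5-fold in each bin of mean count per library, LINC RNAs in orange (called of tested above each bar) and protein-coding genes in grey; right, points give the median SD of log2 CPM between replicates, and the dotted line the SD from counting alone. The orange bars are lower than the grey bars in all 6 bins, and the SD curves lie close together.

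LINC00641 had the highest ratio of spread to the protein-coding median of its bin, 2.40, but in the open bin from 500 reads up, where protein-coding genes had more reads. It had 610, 698 and 777 reads in the parental and 732, 752 and 644 in the PACT KO replicates. LINC02614 (2.201 times) and LINC01786 (2.16 times) had high ratios within closed bins, the latter with 82, 91 and 95 against 144, 70 and 101 reads, where PACT KO replicate 1 lay above all others. LINC01786 overlaps SCNN1D, the gene of an epithelial sodium channel subunit. The smallest spreads were those of LINC01315 (0.23 times), LINC00623 (0.25 times) and LINC00960 (0.31 times).

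Among the LINC RNAs that fell, LINC00265 and LINC01029 fell most. LINC00265 (chromosome 7, 39733568 to 39794623, plus strand, up to 12 exons in GENCODE 29) had 36, 27 and 29 reads in parental and 3, 5 and 2 in PACT KO dishes. The groups were far apart, at 1.33 ± 0.22 and 0.142 ± 0.0562 CPM (SD, n = 3 each), an 8.93-fold fall (log2 fold change -3.16, standard error 0.40, FDR = 3.34e-08 in edgeR). It shares 22.0% of its 50-base words with transcripts of other genes, among them LINC01002 on chromosome 19, which had 16, 26 and 17 reads against 25, 22 and 19 (log2 fold change 0.16, FDR = 0.696 in edgeR). LINC01029 (chromosome 18, 77971294 to 77993727, minus strand, up to 4 exons) had 129, 109 and 126 reads in the parental and 16, 22 and 13 in the PACT KO replicates. It fell from 5.27 ± 0.357 to 0.732 ± 0.15 CPM (SD, n = 3 each), 7.11-fold, the smallest FDR of all LINC RNAs (log2 fold change -2.83, standard error 0.17, FDR = 2.02e-16 in edgeR). None of its 50-base words occurs in another GENCODE 29 gene, it overlaps no other gene body, and no tested protein-coding gene lies within 100 kb. LINC00265 and LINC01029 are the 2 falls that held in all 13 other fits and also under edgeR's glmTreat, which tests against a 1.5-fold change.

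The other 4 falls were 1.518-fold to 2.197-fold, and 3 of them share most of their sequence with other genes. LINC00623 (chromosome 1, 120912238 to 120955811) had 51, 45 and 58 reads against 25, 24 and 21, with replicates unusually close together at 2.22 ± 0.132 and 1.01 ± 0.0259 CPM (log2 fold change -1.13, standard error 0.20, FDR = 1.46e-05 in edgeR). Its replicate SD of log2 CPM, 0.06, lay below the 0.24 that counting alone gives LINC RNAs of 20 to 50 reads, so such closeness need not recur. LINC00623 shares 64.6% of its words, mainly with LINC00869, LINC01145 and LINC01138. The 2 of these that were tested did not pass: LINC00869 had a log2 fold change of 0.04 (FDR = 0.947) and LINC01138 one of -0.05 (FDR = 0.712).

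LINC01123 and LINC01106 on chromosome 2 fell together, but their sequences are nearly the same. LINC01123 (109986980 to 109995281, plus strand) had 124, 121 and 128 reads in the parental and 75, 96 and 75 in the PACT KO replicates, without overlap (log2 fold change -0.60, standard error 0.12, FDR = 1.26e-04 in edgeR). LINC01106 (110375109 to 110384536, minus strand) had 26, 21 and 39 against 14, 19 and 8 reads, also without overlap (log2 fold change -1.06, standard error 0.30, FDR = 0.00388 in edgeR). They share 92.2% and 89.2% of their words with other genes, chiefly with each other. Their promoter windows align over 289 bases with no difference, and the same 120 bases, shown because both genes hold them, lie at chr2:109986730-109986849 on the plus strand and at chr2:110384656-110384775 on the minus strand (a pair chosen after its values were seen).
LINC01123 and LINC01106: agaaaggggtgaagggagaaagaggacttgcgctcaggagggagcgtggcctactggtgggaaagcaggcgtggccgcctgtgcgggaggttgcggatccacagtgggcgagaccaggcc
With such sequences a read of one gene could be counted on the other, so the 2 falls may not be separate measurements. The call of LINC01123 was lost without parental replicate 2 or PACT KO replicate 1 and with upper quartile scaling, and that of LINC01106 without parental replicate 3, PACT KO replicate 1 or PACT KO replicate 3 and in DESeq2.

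The remaining fall was the smallest in significance. LINC02894 on chromosome 8, next to the epithelial splicing regulator gene ESRP1, had 45, 53 and 43 against 23, 35 and 31 reads (log2 fold change -0.66, standard error 0.21, FDR = 0.00956 in edgeR). Its call was the least firm, as it passed in 5 of 13 other fits and not without parental replicate 1, parental replicate 2 or PACT KO replicate 1.

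LINC01019 showed the largest rise, from near absence. It lies on chromosome 5 (3417152 to 3536094, minus strand, up to 5 exons), near the homeobox gene IRX1, and had 7, 8 and 9 reads in the parental and 53, 57 and 51 in the PACT KO replicates. That is 0.347 ± 0.0339 against 2.34 ± 0.189 CPM (SD, n = 3 each), a 6.62-fold rise with tight replicates in both groups (log2 fold change 2.73, standard error 0.27, FDR = 5.67e-11 in edgeR). It shares no 50-base word with other genes. Its body spans LINC01017, which had a total of 1 read over the 6 libraries, in PACT KO replicate 2, and IRX1 had none. It was the one rise that also passed the glmTreat test against 1.5-fold.

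LINC01132 and LINC00701 rose a little over 2-fold. LINC01132 (chromosome 1, 234724042 to 234731643, plus strand) had 10, 14 and 22 reads against 35, 38 and 30, at 0.659 ± 0.224 and 1.49 ± 0.073 CPM (log2 fold change 1.16, standard error 0.27, FDR = 5.58e-04 in edgeR). LINC00701 (chromosome 10, 2300319 to 2315074, minus strand) had 12, 18 and 13 against 35, 35 and 23 reads (log2 fold change 1.10, standard error 0.28, FDR = 0.00146 in edgeR). Neither shares words with other genes, and no tested protein-coding gene lies within 100 kb of either. The groups did not overlap in either gene, but the call of LINC00701 was lost without parental replicate 1 or 3 and in DESeq2.

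The other 6 rises were between 1.52-fold and 1.90-fold. LINC02910 (chromosome 20) had 30, 26 and 32 reads in the parental and 62, 52 and 54 in the PACT KO replicates (log2 fold change 0.93, standard error 0.19, FDR = 9.02e-05 in edgeR), LINC01978 (chromosome 17) had 31, 41 and 45 against 69, 90 and 54, and LINC00933 (chromosome 15) had 34, 47 and 38 against 72, 77 and 65. In these the highest parental replicate stayed below the lowest PACT KO replicate in CPM. The log2 fold changes were 0.86 (standard error 0.17, FDR = 9.24e-05 in edgeR) for LINC01978 and 0.84 (standard error 0.17, FDR = 7.22e-05) for LINC00933. LINC00933 overlaps the end of the pseudogene UBE2Q2P1, which also rose, from 4.13 to 7.07 CPM (log2 fold change 0.77, FDR = 1.26e-06 in edgeR). LINC01978 overlaps LINC01979, which had 21, 15 and 15 against 23, 20 and 15 reads and did not pass the test. Since the use of strand in counting is not given in the sources used here, reads of overlapping genes cannot be told apart.

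LINC02614 (chromosome 3) was the most abundant LINC RNA called, with 201, 165 and 223 reads against 366, 272 and 299. It rose from 8.50 ± 0.753 to 13.6 ± 2.09 CPM (SD, n = 3 each), and its wide spread in PACT KO still left the groups apart (log2 fold change 0.67, standard error 0.10, FDR = 9.41e-07 in edgeR). LINC00663 (chromosome 19) had 55, 50 and 64 against 101, 83 and 83 reads (log2 fold change 0.66, standard error 0.14, FDR = 2.16e-04 in edgeR). LINC00342 (chromosome 2) had 48, 51 and 51 against 69, 84 and 75 reads (log2 fold change 0.60, standard error 0.15, FDR = 0.00145 in edgeR). LINC00342 sat just above the 1.5-fold threshold, shares 28.5% of its words with other genes, and was not called without parental replicate 1, parental replicate 3, PACT KO replicate 2 or PACT KO replicate 3, nor in DESeq2. Of the 15 calls, 10 were made in all 13 other fits.

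**Figure D4:**
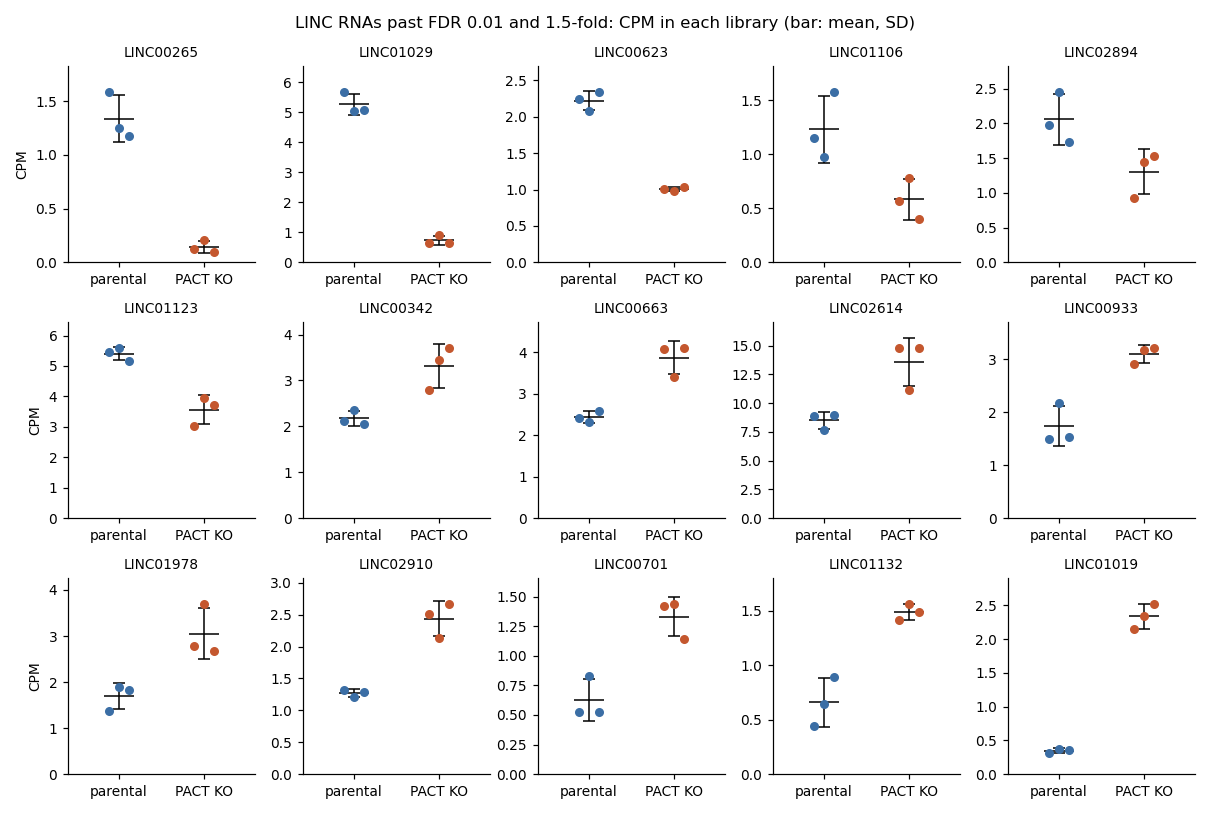
Each panel shows CPM in the 3 LNCaP parental (blue) and 3 PACT KO (orange) libraries for 1 of the 15 called LINC RNAs, with the mean and SD as black bars and axes starting at 0, ordered from the largest fall to the largest rise. The groups do not overlap in any panel, with LINC00265 at 1.33 against 0.142 CPM and LINC01019 at 0.347 against 2.34 CPM at the ends. The panels were chosen by a test on the same values, and the groups did not overlap in 52.2% of all genes tested.

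A further 8 LINC RNAs passed the FDR with changes under 1.5-fold, 1 lower and 7 higher. LINC01128 was lower, with 763, 776 and 872 reads against 705, 754 and 632 (log2 fold change -0.21, standard error 0.05, FDR = 0.00151 in edgeR). LINC02035, which lies 5.37 kb from SLC49A4, had 206, 218 and 255 against 360, 325 and 267 reads (log2 fold change 0.48, standard error 0.09, FDR = 2.40e-05 in edgeR). LINC01144 had 174, 194 and 217 against 293, 265 and 242 reads (log2 fold change 0.45, standard error 0.09, FDR = 1.41e-04 in edgeR). The others, LINC01004, LINC02604, LINC00174, LINC00648 and LINC01000, had log2 fold changes of 0.19 to 0.32. These RNAs had about 200 reads per library or more, where the median replicate SD of LINC RNAs was 0.09 or less, against 0.31 at 10 to 20 reads.

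A list of 24 LINC RNAs known from prostate or other cancer research was drawn up from general knowledge, and 14 of them were among the 167. They include LINC00963 and LINC00920, both described in prostate cancer. Of the 14, 1 was lower (LINC01128) and 2 were higher (LINC00174 and LINC00342) at an FDR under 0.01, and 11 passed neither way. LINC00342 alone also reached 1.5-fold. Among all genes tested 18.8% were lower and 15.3% higher at this FDR. The median log2 fold change of the 14 was 0.04, beside 0.15 over all LINC RNAs tested and 0.00 over all genes tested. LINC00963 had 1099, 946 and 1202 reads against 1090, 1099 and 914, and its groups overlapped in CPM (log2 fold change -0.07, standard error 0.04, FDR = 0.217 in edgeR). LINC00920 had 16 to 23 reads in all 6 libraries (log2 fold change 0.05, standard error 0.30).

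The nearest tested protein-coding gene was found for 129 LINC RNAs within 100 kb, 122 different genes in all. Both the LINC RNA and the neighbour passed an FDR of 0.01 in the same direction in 6 pairs and in opposite directions in 1. Among the neighbours 37.2% passed it, and among all protein-coding genes 37.5%. LINC01123 was the one pair with both genes past 1.5-fold: its neighbour MALL, a membrane-trafficking protein of the MAL family 88.6 kb away, fell from 1.99 to 0.803 CPM (log2 fold change -1.30, standard error 0.24, FDR = 3.11e-05 in edgeR). The 5 pairs that rose together were LINC00663 with the zinc finger gene ZNF506 (log2 fold change 0.53), LINC00174 with the sulfotransferase gene TPST1 (0.33), LINC02910 with the cadherin gene CDH26 (0.26), LINC00933 with the zinc finger gene ZSCAN2 (0.20) and LINC01004 with the chromatin gene KMT2E (0.13), at 15.6 to 23.0 kb.

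LINC00265 was the pair that moved in opposite directions, as RALA, a small GTPase gene 25.4 kb away, went from 63.1 to 69.4 CPM (log2 fold change 0.14, standard error 0.04, FDR = 0.00331 in edgeR). In 9 pairs the LINC RNA passed the FDR and its neighbour did not. Across the 129 pairs the log2 fold changes had a Pearson correlation of 0.19 and a Spearman correlation of 0.20, given as a description, since pairs share libraries and some share a neighbour. In the 11 pairs whose gene bodies overlap the Pearson correlation was -0.47 and the Spearman correlation -0.12.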

How the data were processed

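PolyA RNA from 3 dishes of LNCaP parental and 3 of PACT KO cells was sequenced. The authors deposited whole-number counts of reads per NCBI Gene number, not normalized. The submitters' processing notes name bcl2fastq 2.20.0.422, STAR 2.5.3a, StringTie 1.3.3, featureCounts 1.5.3 and hg38. The annotation, the use of strand and the treatment of reads that match several genes are not given in the sources used here. The last of these bears on near-duplicate LINC genes.

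All 6 value columns were matched to samples by name, and 0 were left over. Reads listed under no gene number (0.0688% to 0.0708% per library) were left out. Libraries held 23062127, 21835590 and 24940838 (parental) and 24484415, 24188796 and 19930060 (PACT KO) reads on genes, so that 3 counts equal about 0.131 CPM. No LINC RNA was at or below 3 counts throughout a group. Symbols and positions came from RefSeq (GRCh38.p14, 92.4% of gene numbers matched, 99.9% of counts), and exon lengths, exon numbers and shared 50-base words from GENCODE 29. A further 99 genes whose older symbol was a LINC number and whose present symbol is of another kind were not members.

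edgeR 4.0.16 (R 4.3.3) was run with filterByExpr, TMM, glmQLFit and glmQLFTest at their defaults on every gene. The standard error is the absolute log2 fold change over the square root of F. Replicate SDs were taken on log2 CPM with a prior count of 2. Alternatives were DESeq2 1.42.0, limma-voom (3.58.1), 2 other scalings, 2 other filters, a block, other thresholds and each library left out. The fits were tested on simulated data. Tables and plots used Python 3.11.15, pandas 2.3.3 and matplotlib 3.10.9.

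The LINC genes, the cancer list, the bins and the tests were chosen with earlier results of these data known. Genes named were the falls and rises past both thresholds, the 10 with the most reads, the cancer list, the 3 largest and 3 smallest spreads, the genes at the edge of 60 counts, and nearest protein-coding genes. Members just past the FDR, untested or sharing sequence with a named gene were named after their values were seen. A permutation test of a single gene cannot reach p below 0.10 with these 6 dishes, and none was used.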

Additional observations from a re-analysis of the deposited data

How the results depend on the processing

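Depth limits these results, since 86 of the 167 LINC RNAs had a mean under 50 reads per library. Under a test against 1.5-fold itself (glmTreat) 2 LINC RNAs were lower and 1 higher. The share of all genes past this test is not given here. Raising the fold threshold to 2 kept 4 falls and 3 rises, 4.22% of the LINC RNAs tested beside 2.23% of all genes tested. Loosening the FDR to 0.05 gave 8 falls and 14 rises past 1.5-fold, and 14 falls and 33 rises of any size. The share of all genes past this looser FDR is not given here. The count was also restricted to the 78 LINC RNAs that overlap no gene body and share at most 10% of their words. This alternative, chosen after seeing the data, left 2 lower and 4 higher (2 and 8 at the FDR alone). Among all genes tested, 2.65% were lower and 3.07% higher (18.8% and 15.3% at the FDR alone).

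Leaving out single libraries, 4 to 7 were lower and 7 to 10 higher with 1.5-fold, and 5 to 10 lower and 13 to 18 higher at the FDR alone. The share of all genes called in these fits is not given here. The median log2 fold change of the LINC RNAs was 0.127 to 0.139, the ratio of spread 1.01 to 1.10, the ratio of change 0.851 to 1.00, and the number of same-direction neighbour pairs 5 to 7. The ratio of change was 0.949 with all other genes as reference. Same-direction pairs numbered 1 with 1.5-fold required of both genes and 0 of 56 within 10 kb in edgeR as in DESeq2, where 5 pairs in edgeR and 3 in DESeq2 had unadjusted p under 0.05 for both genes.

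The replicate numbers did not pair the samples (correlations of same-numbered deviations -0.0938, 0.00285 and -0.0862), and with the replicate block 5 were lower and 9 higher with 1.5-fold, and 6 and 17 at the FDR alone. DESeq2 gave 4 lower and 7 higher with 1.5-fold, and limma-voom 5 and 9. The share of all genes called with the block, in DESeq2 and in limma-voom is not given here. Left-out libraries turned the direction of 6 uncalled LINC RNAs, whose log2 fold changes spanned -0.021 to 0.0068 for LINC00938 (0.000296 without PACT KO replicate 3), -0.016 to 0.023 for LINC00205 (-0.0091 without PACT KO replicate 1), -0.056 to 0.12 for LINC00920 (-0.018 without parental replicate 3), -0.11 to 0.023 for LINC01138, -0.049 to 0.077 for LINC00641 and -0.0033 to 0.49 for LINC01786. Single-gene values were recomputed only for the LINC RNAs that the naming rule gave, and in these no other alternative turned a direction.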

Other observations

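Chromosome 7 carried 16 of the LINC RNAs tested, of which 4 were higher and 1 lower at an FDR under 0.01 in edgeR, with a median log2 fold change of 0.26, where 15.3% of all genes tested were higher and 18.8% lower. The 4 that were higher were LINC01000, LINC00174, LINC02604 and LINC01004, all under 1.5-fold, and the 1 that was lower was LINC00265. Chromosome 1, with 23 LINC RNAs tested, had 2 higher and 2 lower, and a median of 0.09. The chromosomes were singled out after their values were seen, and their differences were not tested.

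In absolute level, the difference of the means was 7.57 CPM for LINC00648, 7.10 CPM for LINC01278 and 6.12 CPM for LINC01000, of which LINC01278 did not pass the test (FDR = 0.0212 in edgeR) and had overlapping groups. The difference was -5.03 CPM for LINC00667 and -4.64 CPM for LINC01128. LINC00667 went from 57.3 to 52.3 CPM (log2 fold change -0.13, FDR = 0.0101 in edgeR) and so lay just outside the FDR threshold, while sharing 23.3% of its 50-base words with other genes.

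The median exon length in GENCODE 29 was 2478 bases for the 6 that fell, 3199 bases for the 9 that rose and 2567 bases for 134 others, and the median of the largest exon number was 4 in each.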
